A study of Mus musculus with 4 samples.

Results

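Accessible chromatin at the 6 mouse GATA factor genes, Gata1 to Gata6, was followed through mammary epithelial nuclei of the fetus and the adult. All 6 genes were taken by name, whatever their values, from 21883 protein-coding genes that could be counted. Each gene was counted over its annotated span with 2 kb added on each side, and its neighbourhood was described through the 162 deposited distal regions within 100 kb of a GATA gene and the 8 deposited promoter regions within 2 kb of one. The series held 145453 distal and 19204 distinct promoter regions, each 1000 bases wide. Single-nucleus ATAC-seq, in which the Tn5 transposase cuts and tags open DNA and combined barcodes name the nucleus, had been run on wild-type CD1 mice, an outbred strain. One group was fetal mammary tissue at embryonic day 18 and the other was adult mammary tissue at 8 weeks, with 2 biological replicates of each. In both groups the cells had been sorted as EpCAM positive and lineage negative, so most connective tissue and blood cells should have been removed by the gate. The labels did not say how many animals were pooled in a library.

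GATA factors are zinc finger proteins that bind DNA at the core letters GATA. Gata3 is known in the mammary gland as a factor of the luminal lineage, needed for the growth of ducts and for keeping luminal cells differentiated. Gata1 and Gata2 are best known from blood formation, Gata1 in red cells, megakaryocytes and mast cells and Gata2 in stem and progenitor cells. Gata4, Gata5 and Gata6 act in the heart, the gut and other organs of endodermal and mesodermal origin, and Gata6 is also expressed in many mesenchymal cells. ATAC-seq reads measure open chromatin, not the transcript or the protein.

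The 4 libraries held 882 and 1695 fetal nuclei and 2465 and 2804 adult nuclei, with 6028168 to 19304830 listed reads, and no barcode occurred in more than 1 library. Levels below are in RPM, reads per 1000000 listed reads of a library or class, and in RPM per kb where genes are compared. The authors' 14 deposited classes of nuclei were used as they stood, and their names came from earlier marker work on these data. Classes 1, 4 and 8 were basal-like, classes 3, 5, 7 and 9 luminal progenitor-like, classes 2 and 11 mature luminal-like, class 10 luminal-like and class 6 stromal-like, and classes 12, 13 and 14 were not named. All 8 basal markers rose by at least 0.5 (log2) over the other classes in classes 1 and 8, 6 of them in class 4, and all 6 mature luminal markers in class 2. Of the 6 luminal progenitor markers 5 did so in classes 3 and 7, 4 in class 9 and only 3 in class 5, and 4 also in class 10, so the fetal progenitor-like classes had weaker marker support than the adult ones. Of the 6 mature luminal markers, 5 did so in class 11 and 4 in class 10, the deepest class (median 9090 reads per nucleus). In the unnamed class 14 all 6 mature luminal and 6 of the 8 basal markers did so. In class 6 all 6 stromal markers did so, Col1a1, Col1a2, Col3a1, Pdgfra, Dcn and Lum, with a summed level of 432 RPM. The stages did not hold the same mix: the share of mature luminal-like nuclei was 0.340% and 0.413% in the fetus and 40.6% and 38.3% in the adult. In a whole-library comparison, more nuclei of a class and more open chromatin per nucleus cannot be told apart.

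The DNA just before the starts of Gata3, Gata2 and Gata1 is shown first because these genes were the most open, the next most open and the least open of the family. Each run holds the 250 bases before an annotated start, 5′ to 3′ on the gene's strand, with CG dinucleotides in capitals. RefSeq (GRCm38.p6, the assembly of the authors' mm10 coordinates) gave windows for 4 of the 6 members, and none for Gata4 and Gata6.
Gata3, chr2:9878601-9878850, minus strand: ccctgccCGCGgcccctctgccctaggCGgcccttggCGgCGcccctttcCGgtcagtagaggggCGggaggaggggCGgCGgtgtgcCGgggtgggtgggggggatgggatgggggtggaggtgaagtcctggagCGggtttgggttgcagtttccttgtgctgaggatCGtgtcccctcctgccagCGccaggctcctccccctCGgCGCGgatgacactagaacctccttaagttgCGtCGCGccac
Gata2, chr6:88193641-88193890, plus strand: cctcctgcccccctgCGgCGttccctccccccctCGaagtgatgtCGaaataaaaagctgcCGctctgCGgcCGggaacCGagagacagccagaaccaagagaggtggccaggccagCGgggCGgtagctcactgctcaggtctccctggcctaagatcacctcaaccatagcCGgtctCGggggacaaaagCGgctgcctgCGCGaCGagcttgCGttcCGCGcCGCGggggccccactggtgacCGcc
Gata1, chrX:7967911-7968160, minus strand: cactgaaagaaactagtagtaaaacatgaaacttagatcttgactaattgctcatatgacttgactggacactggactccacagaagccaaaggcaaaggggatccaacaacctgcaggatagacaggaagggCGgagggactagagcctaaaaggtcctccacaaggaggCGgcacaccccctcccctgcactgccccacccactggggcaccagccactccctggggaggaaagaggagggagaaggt
The Gata3 window held 19 CG dinucleotides and the Gata2 window 22, against a median of 6 over 32851 RefSeq promoter windows of the same length. The Gata1 window held 2. A second Gata2 start, at chr6:88198414-88198663, had 24 in its window and the Gata5 window, at chr2:180334680-180334929 on the minus strand, had 22. Gata5 was nevertheless far less open than Gata3 (below), so the number of CG dinucleotides did not order the members. Common forms of the GATA site were searched on both strands: the hexamer AGATAA, the form AGATAG that ends in G, and the forms of each that begin with T, which are TGATAA in the first case and TGATAG in the other. None of the 5 windows held one, while 26.5% of all windows held at least 1. The absence says only that these letters are not in these windows.

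Gata3 was the most open member by a wide margin, and its level did not differ detectably between fetus and adult. Its span lies at chr2:9857078-9887953 (minus strand, gene ID 14462). It held 1606 and 4395 fetal reads and 3796 and 5458 adult reads, which was 266 and 278 RPM in the fetus and 279 and 283 RPM in the adult. The means were 272 ± 8.28 RPM in the fetus and 281 ± 2.38 RPM in the adult (SD, n = 2). The difference did not pass the test (log2 fold change −0.05 ± 0.09 SE, fetal over adult, edgeR adjusted p = 0.763). Per kb the mean was 7.93 RPM, above 99.1% of all genes, whose median was 0.670 RPM per kb. Reads carry no strand of transcription, so noncoding RNA genes that overlap the Gata3 span cannot be told apart from it.

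Gata2, the stem cell factor of blood, came next at 1.49 RPM per kb, above 74.0% of genes. Its span at chr6:88193891-88207032 held 29.2 and 27.7 RPM in the fetus and 24.1 and 21.3 RPM in the adult. All fetal values were above the adult values, but the difference did not pass the test (log2 0.32 ± 0.14 SE, edgeR adjusted p = 0.127).

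Gata4 and Gata6, the factors of heart and endoderm, were the members called between the stages over whole libraries. Gata4 (chr14:63198914-63271712) held 331 and 920 fetal reads against 439 and 619 adult reads, or 54.9 and 58.2 RPM against 32.3 and 32.1 RPM. It was higher in the fetus by 0.82 ± 0.12 on the log2 scale (SE, edgeR adjusted p = 0.000520). Gata6 (chr18:11052510-11085636) held 33.7 RPM in each fetal library, against 22.3 and 21.5 RPM for the adult. It was higher in the fetus by 0.62 ± 0.14 (SE, edgeR adjusted p = 0.00620). The stages did not overlap in either gene, nor did they in Gata2, Gata3 and Gata5, which were not called. The share of all genes with that trait was not counted, so it sets no member apart. Without fetal replicate 2, the deeper fetal library, Gata6 did not pass (0.58, edgeR adjusted p = 0.0780). Without class 6, an alternative chosen after seeing the data, both still passed, at 0.80 for Gata4 and 0.69 for Gata6. Per kb these genes were ordinary, at 0.578 RPM for Gata4 and 0.748 RPM for Gata6, near the median of all genes.

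Gata5 and Gata1 held few reads. Gata5 (chr2:180325088-180335503) had 43 and 96 fetal and 73 and 83 adult reads, a mean of 0.397 RPM per kb, and did not pass the test (log2 0.44 ± 0.31 SE, edgeR adjusted p = 0.351). Gata1 (chrX:7959260-7976663), the red cell factor, had 6 and 40 fetal and 17 and 43 adult reads and 0.0818 RPM per kb, with only 14.4% of genes lower. Gata1 did not pass (log2 0.11 ± 0.60 SE, edgeR adjusted p = 0.919). With that standard error, even a stage difference well above 0.60 could be missed at this depth. Thus 2 of the 6 members were called, both higher in the fetus, where 22.2% of the 18804 genes tested were called in either direction and 11.3% were higher in the fetus. The median log2 fold change was 0.38 over the 6 members and 0.01 over all genes tested.

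**Figure D1:**
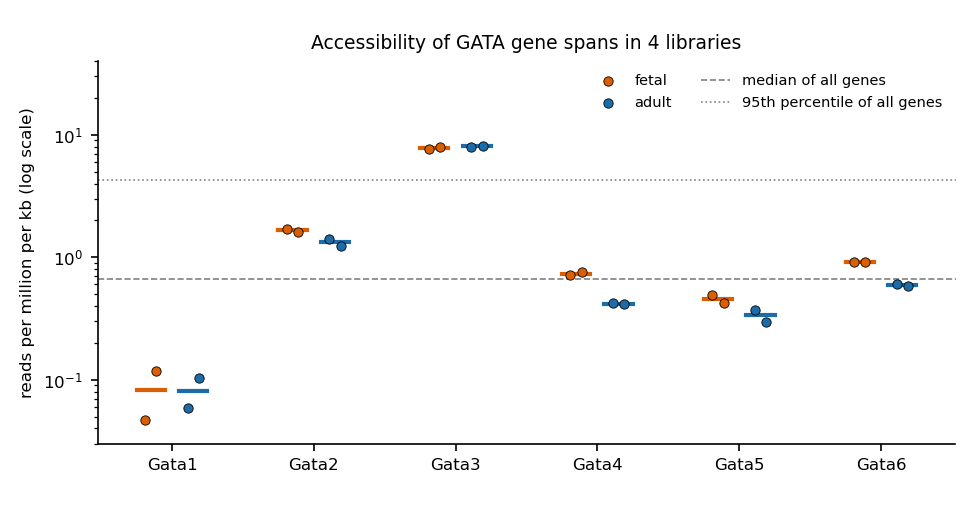
Open chromatin of each GATA gene span in RPM per kb (log axis); points are libraries, short bars the stage means, and lines the median and 95th percentile of all genes. Gata3 lies above the 95th percentile in all 4 libraries, and the fetal and adult points overlap in Gata1 only. The share of all genes without such overlap was not counted.

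The fetal excess of Gata4 was also present inside lineages, as sums over adult classes that differed in Gata4 level (below). In luminal progenitor-like nuclei it held 52.6 and 53.2 RPM in the fetus (classes 5 and 9) and 29.0 and 33.1 RPM in the adult (classes 3 and 7), a log2 difference of 0.73 ± 0.16 SE (edgeR adjusted p = 0.00247). In basal-like nuclei the values were 47.4 and 63.1 RPM in fetal class 4 against 19.2 and 26.8 RPM in adult classes 1 and 8 (log2 1.27 ± 0.28 SE, edgeR adjusted p = 0.00326). It was the only member called in either lineage, out of 6 tested among luminal progenitor-like nuclei, where 20.3% of genes were called, and 5 tested among basal-like nuclei, where 6.16% were. Gata6 did not pass in either, with log2 0.36 ± 0.19 SE (edgeR adjusted p = 0.195) in luminal progenitor-like and 0.58 ± 0.32 SE (edgeR adjusted p = 0.320) in basal-like nuclei. Neither Gata4 call passed without fetal replicate 2, with log2 0.70 (edgeR adjusted p = 0.0501) in luminal progenitor-like and 0.99 (0.121) in basal-like nuclei. Without adult replicate 2 Gata1 was also called in luminal progenitor-like nuclei (edgeR adjusted p = 0.00829), against a single adult library with 0 reads. The effect of stage did not differ detectably between the lineages (log2 difference of effects 0.54 ± 0.31 SE, edgeR adjusted p = 0.384). None of the 5 members tested differed between the lineages in that respect by edgeR or DESeq2, while 6.84% of genes did by edgeR. Gata3 was the one member under an unadjusted p of 0.05 there (0.0402, edgeR adjusted p = 0.252). Its level in basal-like nuclei was 237 and 236 RPM in the fetus and 291 and 287 RPM in the adult.

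Across classes Gata3 was open at a near constant level in every class except the stromal-like one. The values that follow are descriptions, since the classes were made from the same reads. Over the 24 sums of a class in a library with at least 50 nuclei outside class 6, Gata3 ranged from 222 RPM (adult class 8) to 349 RPM (adult class 1), with a median of 277 RPM. In adult class 6 it held 89.9 and 64.0 RPM, from 38 and 37 reads. The fetal libraries had only 23 and 33 nuclei of class 6 and gave 6 and 20 reads. On the log2(RPM + 2) scale, class 6 lay 2.01 below the mean of the other 13 classes, and 1.07% of the 11796 genes with a mean of at least 20 RPM lay lower. The standard deviation of Gata3 over those 13 classes was 0.15, and 0.814% of these genes had a smaller one. Genes with more reads have less counting error, and that percentage was not adjusted for it. Adult basal-like nuclei held 291 and 287 RPM, close to the 294 and 295 RPM of adult mature luminal-like nuclei, but their classes varied between libraries, with 282 and 349 RPM in class 1 and 301 and 222 RPM in class 8.

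Gata6 had the opposite pattern. It held 80.5 and 72.6 RPM in adult class 6, against a median of 25.9 RPM and a highest value of 38.1 RPM over the other class and library sums. In class 6 it was 1.62 above the mean of the other 13 classes on the log2(RPM + 2) scale, with 99.1% of genes lower. Fetal class 6 gave 76.0 and 91.2 RPM from 11 and 32 reads. Class 6 made up 2.61% and 1.95% of the fetal nuclei and 3.33% and 2.67% of the adult nuclei. In adult mature luminal-like nuclei Gata6 held 16.0 and 17.6 RPM, against 22.6 and 25.9 RPM in adult luminal progenitor-like nuclei. Adult basal-like nuclei held 34.7 and 17.0 RPM. Mature luminal-like nuclei were nearly absent from the fetus, so class mix and stage cannot be told apart in the whole-library Gata6 call. The part of other cell types in these levels was not tested.

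Gata4 was lowest in adult class 1 (11.7 and 21.6 RPM) and highest in fetal class 13 (80.1 RPM in fetal replicate 2). All 9 fetal sums outside class 6 were at or above 43.8 RPM, while the 15 adult sums ranged from 11.7 to 56.3 RPM and overlapped them. The classes of one adult lineage differed too. In the adult libraries Gata4 held 40.4 and 46.3 RPM in class 3 and 22.9 and 20.5 RPM in class 7. The values were 27.6 and 32.2 RPM in class 8 and 11.7 and 21.6 RPM in class 1. They were 56.3 and 39.8 RPM in class 11 and 34.5 and 27.0 RPM in class 2. In each of these pairs the class with the higher Gata4 level in RPM had the lower share of reads in promoter regions, 21.0 against 27.1, 17.9 against 25.6 and 19.4 against 24.5 per 100 reads. The part of that share in the Gata4 levels was not tested. Gata2 ranged from 10.4 to 42.9 RPM with no class apart from the rest, and adult class 6 held 33.1 and 31.1 RPM. Gata5 ranged from 0 to 15.2 RPM and Gata1 from 0 to 4.21 RPM. The summed level of the 6 red cell and mast cell markers ran from 36.0 RPM in class 1 to 182 RPM in class 7. There only Kit, also a luminal progenitor marker, rose by at least 0.5 (log2) over the other classes. Class 11 had the most of them raised, 3 (Hbb-bs, Hba-a1 and Cpa3).

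**Figure D2:**
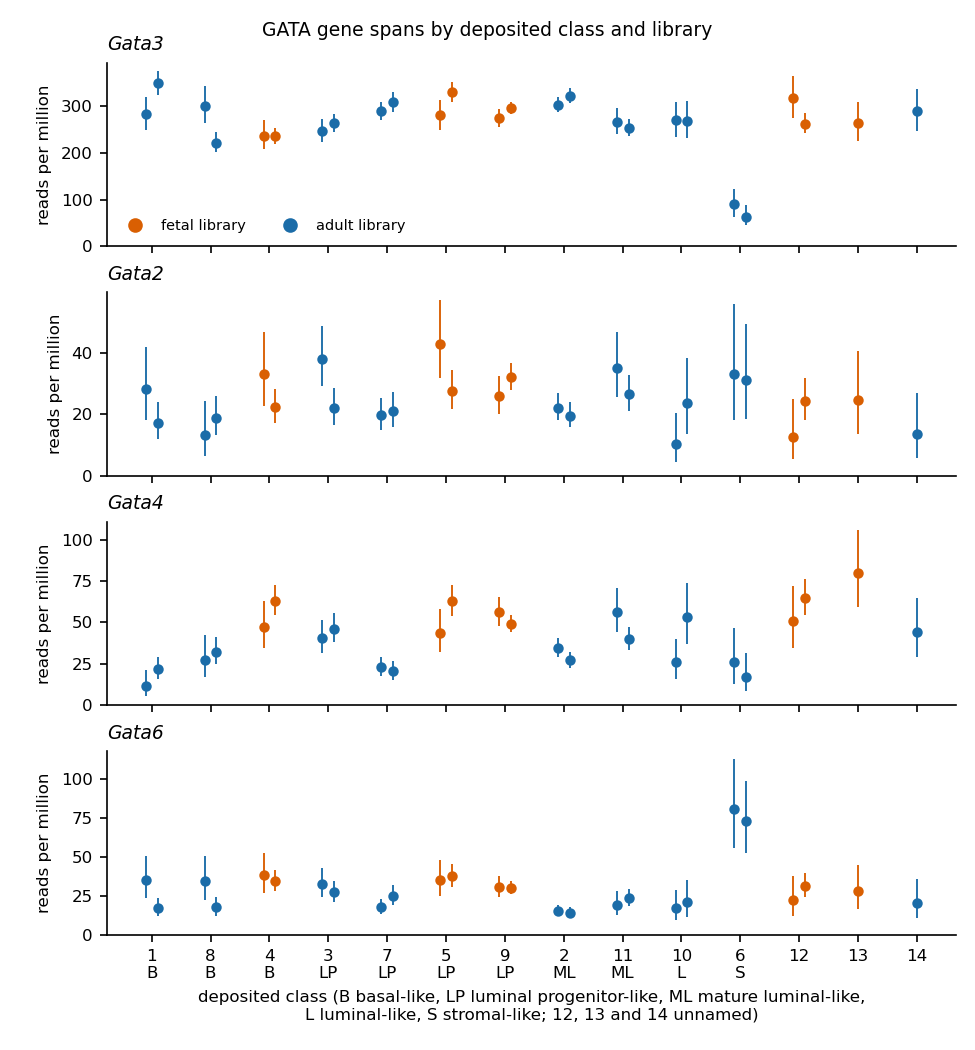
RPM over 4 GATA gene spans in each deposited class and library with at least 50 nuclei; bars are exact 95% Poisson intervals of the summed reads. Class 6 (S) is low for Gata3 and high for Gata6, and fetal points of Gata4 lie mostly above adult ones.

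The intervals cover counting error only. Both ends of a fragment are listed as separate reads, so they are also too narrow. The genes most like Gata3 over the 14 classes, among 11792 compared, were Itga6 (Pearson r = 0.97, across classes), Cd9 (0.97), Tfap2a (0.96), Ripk4 (0.95) and Zfp184 (0.95). Itga6 encodes an integrin, Cd9 a tetraspanin and Tfap2a an AP-2 transcription factor. The likeness rested largely on class 6: over the other 13 classes r was 0.67, 0.60, 0.63, 0.31 and 0.83 in that order. The classes share libraries and differ in depth, so these values are descriptions.

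No distal region within the Gata3 gene passed the test between stages, and the regions that changed lay outside it. Of the 43 distal regions within 100 kb, 12 overlapped the span, and all 12 were tested. Their log2 fold changes ran from −0.47 to 0.62 and none was called. Of the 31 outside the span, 26 were tested and 11 were called, 4 higher in the fetus and 7 higher in the adult. Thus 11 of the 38 tested regions were called, against 35.3% of all 122865 distal regions tested, so as a set the Gata3 neighbourhood was not richer in changed regions than the genome. The medians were −0.11 for the 38 regions and −0.01 for all.

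The region with the most reads lies at chr2:9877995-9878994. It is deposited as distal but holds the RefSeq start of Gata3 and the whole sequence printed above. It held 42.8 and 48.2 RPM in the fetus and 42.9 and 36.3 RPM in the adult, which overlap (log2 0.24 ± 0.16 SE, edgeR adjusted p = 0.256). In adult class 6 it held 9.47 and 6.92 RPM, from 4 reads in each library.

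Of the promoter regions, chr2:9879121-9880120 lies just before that start. It held 42.0 and 32.6 RPM in the fetus and 43.6 and 42.9 RPM in the adult, and did not pass (edgeR adjusted p = 0.133). In adult class 6 it held 26.3 RPM on average, against 42.0 RPM in adult basal-like and 46.5 RPM in adult mature luminal-like nuclei. The region at chr2:9887324-9888323, at the upstream end of the annotated span, which reaches beyond the start used here, held 10.3 RPM in the fetus and 8.12 RPM in the adult and did not pass (edgeR adjusted p = 0.364). The last one, at chr2:9888795-9889794 and 10.7 kb before the start, held 23.2 and 24.9 RPM in the fetus and 32.5 and 29.8 RPM in the adult. It fell just past the threshold (log2 −0.35 ± 0.13 SE, edgeR adjusted p = 0.0487) and did not pass with DESeq2, scaling by total reads, a higher read minimum or midpoint counting, nor without any 1 library, with adjusted p from 0.0696 to 0.319.

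**Figure D3:**
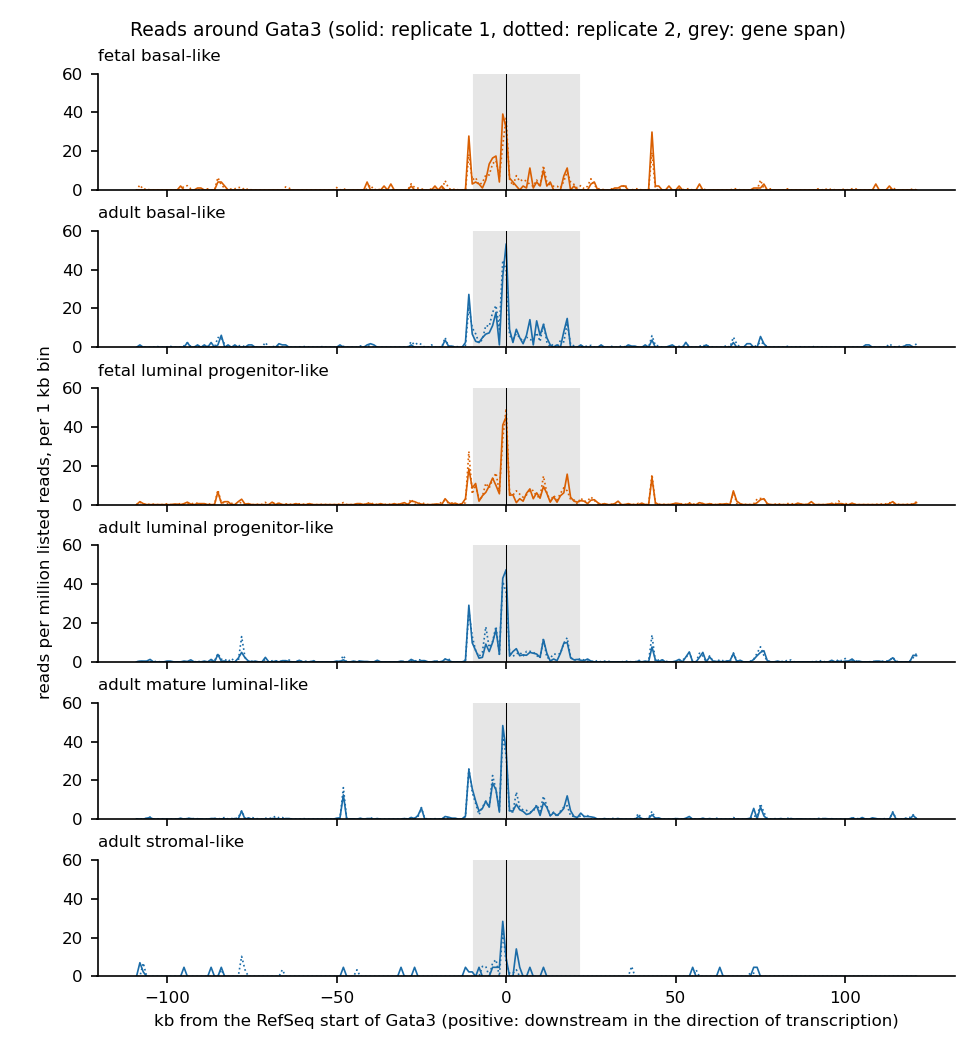
RPM in 1 kb bins around the RefSeq start of Gata3, for 6 sets of nuclei; solid and dotted lines are replicates 1 and 2 and grey marks the gene span. The peaks inside the span recur in all epithelial sets, while single outer peaks belong to some sets.

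The fetal-high region near Gata3 with the most reads was chr2:9834715-9835714, which lies 43.4 kb downstream of the start, between protein-coding genes. It held 96 and 261 fetal and 66 and 146 adult reads, or 15.9 and 16.5 RPM against 4.86 and 7.56 RPM, and it rose in the fetus by 1.40 ± 0.24 on the log2 scale (SE, edgeR adjusted p = 1.32e-05). In basal-like nuclei it held 29.9 and 19.9 RPM in the fetus and 3.71 and 6.26 RPM in the adult (log2 2.34 ± 0.45 SE, edgeR adjusted p = 0.00102). It was the only region called among the 12 tested in basal-like nuclei, where 10.8% of all distal regions were called, and it was not called without adult replicate 1 (2.01, edgeR adjusted p = 0.424). In luminal progenitor-like nuclei the values were 14.9 and 16.1 RPM against 8.52 and 13.8 RPM, and the difference did not pass (log2 0.44 ± 0.28 SE, edgeR adjusted p = 0.270). The difference between these lineages was not tested for regions.

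Another 2 regions that passed the naming rule rose in the fetus. The region at chr2:9853402-9854401, 2.68 kb beyond the downstream end of the span, held 2.16 and 3.80 RPM in the fetus and 0.809 and 0.570 RPM in the adult (log2 2.21 ± 0.53 SE, edgeR adjusted p = 0.00113), and did not pass without fetal replicate 2 (1.74, 0.0954). The region at chr2:9810786-9811785 held 8.85 and 7.19 RPM in fetal luminal progenitor-like nuclei and 0 and 1.29 RPM in fetal basal-like nuclei. The adult values were 4.26 and 5.25 RPM in luminal progenitor-like and 2.48 and 7.01 RPM in basal-like nuclei, so in basal-like nuclei both adult values were above the fetal ones. Its rise over whole libraries was 1.08 (edgeR adjusted p = 0.0164), and within luminal progenitor-like nuclei the difference did not pass (0.70, edgeR adjusted p = 0.190). The whole-library call was lost with DESeq2 (adjusted p = 0.126), without fetal replicate 1 (0.96, edgeR adjusted p = 0.0528) and without adult replicate 1 (0.67, edgeR adjusted p = 0.258).

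Among the regions named by the rule, the largest fall in the fetus was at chr2:9926021-9927020, which lies 47.9 kb before the start, inside the span of Taf3, a gene for a subunit of the general transcription factor TFIID. It held 4 and 20 fetal and 92 and 164 adult reads, or 0.664 and 1.27 RPM against 6.77 and 8.50 RPM (log2 −2.80 ± 0.39 SE, edgeR adjusted p = 4.30e-07). It was open in adult mature luminal-like nuclei, at 12.5 and 16.4 RPM, and in adult luminal-like class 10, at 10.4 and 14.8 RPM. In adult basal-like nuclei it held 0 and 0.501 RPM, and in adult luminal progenitor-like nuclei 1.28 and 3.50 RPM. The fetal libraries held almost no mature luminal-like nuclei, so the part of that class in the fall was not tested.

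A neighbour at chr2:9903237-9904236, 25.1 kb before the start, held 6.79 and 6.84 RPM in adult mature luminal-like nuclei. Here class 10 was low, at 2.59 and 0 RPM, and no library of the adult basal-like or luminal progenitor-like nuclei was above 2.50 RPM. It fell in the fetus by 2.02 on the log2 scale (edgeR adjusted p = 0.00177). The region at chr2:9955621-9956620, also in the span of Taf3, was instead highest on average in adult luminal progenitor-like nuclei among the epithelial lineages, at 6.61 and 14.6 RPM. It fell in the fetus by 1.74 over whole libraries (edgeR adjusted p = 0.00104), but did not pass without fetal replicate 2 (−0.99, 0.0915). Within luminal progenitor-like nuclei the fall was 2.56 on the log2 scale (log2 fold change −2.56 ± 0.51 SE, edgeR adjusted p = 0.00139), and it passed without each library in turn, at −3.19 to −1.68. There 5 of the 25 Gata3 regions tested were called, 1 up and 4 down, where 25.2% of all distal regions were called.

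The 2 remaining falls named by the rule were far downstream. They were chr2:9757508-9758507 (log2 −1.57, edgeR adjusted p = 0.0110) and chr2:9763956-9764955 (log2 −1.37, edgeR adjusted p = 0.0475), the latter just past the threshold. Neither passed with DESeq2 or without fetal replicate 2 (−1.33 and −1.14), and the latter also failed without either adult library (−1.54 and −1.37). In luminal progenitor-like nuclei the first of them fell by 2.27 (edgeR adjusted p = 0.00319).

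**Figure D4:**
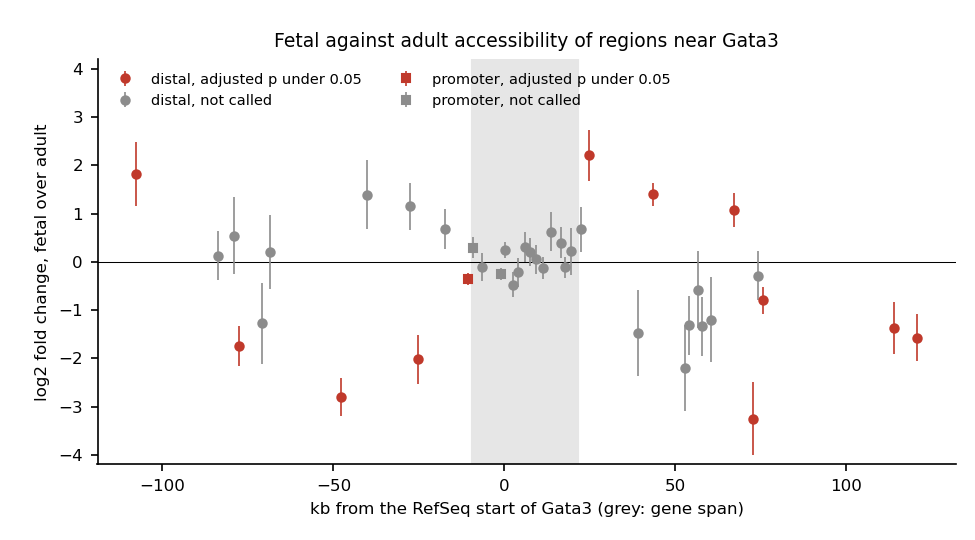
Log2 fold change, fetal over adult, of each tested region near Gata3 against its distance in kb from the RefSeq start; bars are standard errors, red marks an edgeR adjusted p under 0.05 and grey shading the gene span. The 12 distal regions in the span sit between −0.47 and 0.62, and the called distal regions lie outside it.

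The authors' deposited Cicero table scores how far 2 regions are open in the same nuclei, over all nuclei pooled and with no replicates. At a score of 0.1 or more the 3 Gata3 promoter regions had 4, 0 and 3 pairs and the Gata6 ones 2 and 1. The promoter regions of Gata2, Gata4 and Gata5 had 0. Over 19199 promoter regions with listed pairs the median was 1 such pair, and 45.2% had none. At least 4 pairs were held by 23.7% of promoter regions and at least 3 by 29.4%. No member pair reached 0.25. The region just before the Gata3 start paired best with its neighbour over the start, at 0.192, then with regions at chr2:9866673-9867672 in the gene (0.131) and at chr2:9903237-9904236 (0.131), the mature luminal-like region above. The region 10.7 kb before the start paired best with chr2:9805219-9806218 (0.120), then with chr2:9620203-9621202 (0.105) and with the Taf3 region chr2:9926021-9927020 (0.103). The first of these partners held 1 and 4 fetal and 44 and 27 adult reads. The region at the upstream end of the span had a highest score of 0.0823. The best pair of Gata6 was between chr18:11053730-11054729 and its neighbour in the gene, at 0.241. The other Gata6 promoter region scored 0.154 with chr18:11329740-11330739, which lies 278 kb away. The highest score was 0.0590 for Gata5, with a promoter region in Rbbp8nl, 0.0038 for Gata2 and 0 for Gata4. In the authors' deposited gene score table, which is pooled and holds 2 of the members, Gata3 was above 0 in 9.72% of 7846 columns and Gata2 in 3.62%, against a median of 6.79% over 11327 genes.

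Around the other 5 genes, 105 of 119 distal regions were tested and 33 were called, 15 higher in the fetus and 18 higher in the adult, where 35.3% of all distal regions were called. Gata4 had 39 tested and 15 called. Inside its span 3 of 12 tested regions were called, all higher in the fetus, and inside Gata6 1 of 3, also higher in the fetus. Reads of these regions are part of the span counts too, so their direction is not separate from the span results. The regions named for Gata4 lie outside the gene. One at chr14:63345678-63346677 held 8.79 and 11.7 RPM in the fetus and 1.25 and 1.61 RPM in the adult (log2 2.87 ± 0.33 SE, edgeR adjusted p = 6.82e-09). In adult basal-like nuclei it still held 7.43 and 3.25 RPM, against 0.174 and 0.733 RPM in adult mature luminal-like nuclei. One at chr14:63308516-63309515 held 45 and 99 fetal reads and 6 and 22 adult reads (log2 3.05, edgeR adjusted p = 3.20e-07). In the other direction, chr14:63180510-63181509 in Fdft1, a gene of cholesterol synthesis, held 1 and 6 fetal and 32 and 53 adult reads. A region at chr14:63103127-63104126 fell by 1.93 (edgeR adjusted p = 4.09e-05). The most read region near Gata4, at chr14:63131897-63132896 in the protease gene Ctsb, did not pass (edgeR adjusted p = 0.197). The Gata4 promoter region at chr14:63270963-63271962 held only 8 and 26 fetal and 13 and 17 adult reads.

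Near Gata2, chr6:88131522-88132521 had the largest rise, with 33 and 134 fetal reads and 12 and 6 adult reads, or 5.47 and 8.48 RPM against 0.883 and 0.311 RPM (log2 3.69 ± 0.45 SE, edgeR adjusted p = 2.49e-08). It lies 61.9 kb before the start. A region at chr6:88123885-88124884 rose by 1.50 and the most read one, at chr6:88116068-88117067, by 1.18 (edgeR adjusted p = 0.000413 and 0.000139). Regions at chr6:88209177-88210176 and chr6:88290874-88291873, the latter in Eefsec, each fell by 1.68 (edgeR adjusted p = 0.0101 and 0.00946). Neither passed with DESeq2 or without fetal replicate 2 (−1.26 and −0.90), nor did the first without adult replicate 1 (−1.53) or the other without adult replicate 2 (−1.39). The first of these was open in adult luminal progenitor-like nuclei, at a mean of 8.76 RPM, and held 0 reads in adult basal-like nuclei. The Gata2 promoter region at chr6:88193359-88194358 did not pass (6.06 RPM in the fetus, 4.84 RPM in the adult, edgeR adjusted p = 0.356).

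Gata6 had 1 promoter region that rose in the fetus. At chr18:11051745-11052744, over the low end of the span, the fetal values were 9.46 and 9.75 RPM and the adult values 3.61 and 5.59 RPM (log2 1.03 ± 0.26 SE, edgeR adjusted p = 0.00189). It did not pass without adult replicate 1 (0.71, edgeR adjusted p = 0.0857). Adult class 6 held 9.47 and 24.2 RPM there and adult basal-like nuclei 1.24 and 2.50 RPM. The second, at chr18:11053730-11054729, did not pass (edgeR adjusted p = 0.501). With the Gata3 region 10.7 kb before the start, 2 of 8 member promoter regions were called, where 21.5% of all promoter regions were. Of the Gata6 distal regions, chr18:10976346-10977345 rose by 2.48 (edgeR adjusted p = 0.000169) and chr18:11156176-11157175 fell by 1.75 (edgeR adjusted p = 0.0259). The rise did not pass without fetal replicate 2 (1.85, edgeR adjusted p = 0.0642), and the fall did not with DESeq2 or without replicate 1 of either stage (−1.13 without the fetal and −1.48 without the adult one). The most read one, chr18:11015498-11016497, did not pass (edgeR adjusted p = 0.801).

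Near Gata5, 21 regions were tested and 6 called, 1 higher in the fetus and 5 in the adult, and near Gata1 1 of 8 was called, higher in the adult. The region chr2:180242760-180243759, 91.4 kb downstream of the Gata5 start, held 0 and 2 fetal and 69 and 98 adult reads (edgeR adjusted p = 2.19e-08). Adult mature luminal-like nuclei held 11.0 and 10.6 RPM there, and adult basal-like nuclei 0 and 0.501 RPM. A region at chr2:180232712-180233711 fell in the fetus by 2.50 and the most read one, chr2:180275929-180276928 in Rbbp8nl, by 0.98 (edgeR adjusted p = 2.60e-06 and 0.000211). The Gata5 promoter region at chr2:180333712-180334711 did not pass (edgeR adjusted p = 0.265). No distal or promoter region overlapped the Gata1 span. The most read region within 100 kb of it, chrX:7937204-7938203 in the deacetylase gene Hdac6, held 1.82 and 1.84 RPM in the fetus and 10.4 and 10.0 RPM in the adult and fell in the fetus by 2.44 (edgeR adjusted p = 1.40e-07). Adult mature luminal-like nuclei held 18.5 and 17.7 RPM there.

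Motif scores existed for 2 members. The authors' deposited chromVAR table gives each nucleus a deviation score, which is above 0 where regions with a motif are more open than the average nucleus would give. Among its 427 columns, Gata2 and Gata3 were the ones named for a member. Both were lower in the adult. The Gata3 column averaged 0.194 and 0.200 in the fetus and −0.134 and −0.0667 in the adult (difference 0.30 ± 0.05 SE, limma adjusted p = 0.00276). The Gata2 column averaged 0.238 and 0.296 in the fetus and −0.188 and −0.117 in the adult (difference 0.42 ± 0.05 SE, limma adjusted p = 0.000916). The stages did not overlap in either, but the share of all columns with that trait was not counted. Of all columns 67.9% were called, 32.3% of all as higher in the fetus. GATA factors bind like sites, so a score does not tell which member is bound. The 2 columns had a Pearson r of 0.43 across 7846 nuclei, which share libraries and depth, and the next column for both was Mecom (0.20 for Gata2, 0.16 for Gata3).

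Among luminal progenitor-like nuclei both motif scores were lower in the adult, while among basal-like nuclei the direction depended on the adult class. In luminal progenitor-like nuclei the Gata3 score was 0.162 and 0.226 in the fetus and −0.389 and −0.448 in the adult, and the Gata2 score 0.242 and 0.308 against −0.502 and −0.590. In fetal basal-like class 4 the scores were 0.0744 and 0.169 for Gata3 and 0.111 and 0.249 for Gata2. Adult class 1 lay above these in both libraries, at 0.462 and 0.317 for Gata3 and 0.562 and 0.541 for Gata2. Adult class 8 did not, at −0.0583 and 0.0944 for Gata3 and −0.144 and 0.111 for Gata2. Taken as one lineage, the adult basal-like nuclei averaged 0.254 and 0.225 for Gata3 and 0.279 and 0.362 for Gata2. The stage effect within lineages was not tested for motifs. Adult mature luminal-like nuclei scored −0.0813 and −0.0192 for Gata3, above adult luminal progenitor-like nuclei and below adult basal-like nuclei. Stromal-like nuclei, in which the Gata3 gene was least open, had the highest Gata3 score, 0.522 and 0.578 in the adult and 0.769 and 0.496 in the fetus, the latter from 23 and 33 nuclei. Over the 14 classes the Gata3 means ran from −0.454 in class 3 to 0.564 in class 6. That range of 1.02 was larger than in 51.0% of 388 distinct columns, whose median range was 1.01.

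**Figure D5:**
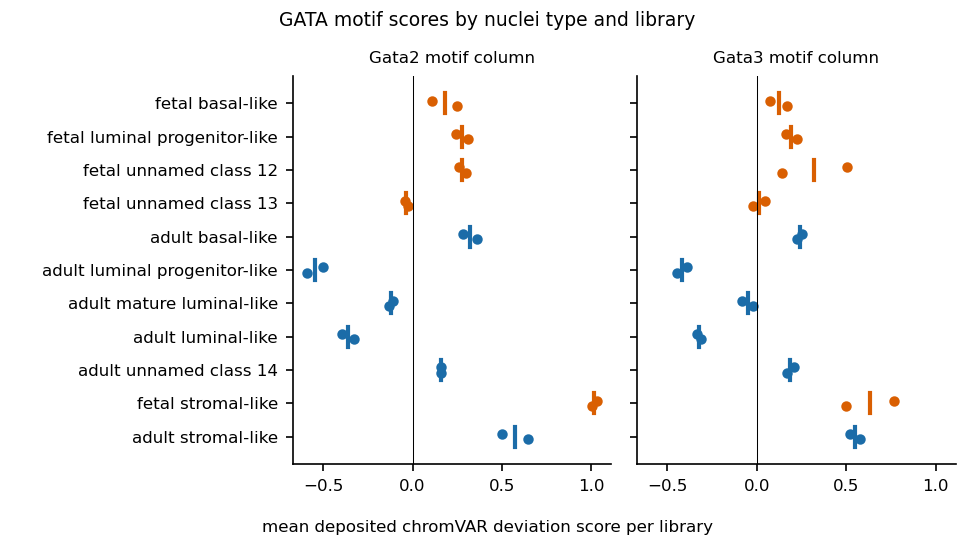
Mean deposited chromVAR deviation score of the Gata2 and Gata3 motif columns in each set of nuclei; points are libraries, bars the means of 2 libraries. Adult luminal progenitor-like nuclei are the lowest, while fetal and adult basal-like nuclei both lie above 0.

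A list of 14 genes of GATA partners and GATA-like proteins was counted beside the members, and 4 of the 14 were called, 1 higher in the fetus and 3 higher in the adult. Lmo4, a LIM-only adaptor protein, held 153 and 144 RPM in the fetus and 114 and 108 RPM in the adult (log2 0.42 ± 0.10 SE, edgeR adjusted p = 0.00945). It did not pass without fetal replicate 1 (0.40, edgeR adjusted p = 0.0803) or fetal replicate 2 (0.42, 0.0924), which left no cofactor called as higher in the fetus. Trps1, an atypical GATA-type repressor, held 178 and 207 RPM against 298 and 307 RPM (log2 −0.65 ± 0.10 SE, edgeR adjusted p = 0.000800). It was high in both adult luminal lineages, at means of 356 RPM in luminal progenitor-like and 304 RPM in mature luminal-like nuclei, and held 211 RPM in adult basal-like nuclei. Foxa1, a pioneer factor, fell in the fetus by 0.88 and Esr1, the oestrogen receptor, by 0.80 (edgeR adjusted p = 0.000140 and 0.000481). Both of these are also mature luminal markers, and Foxa1 held a mean of 161 RPM in adult mature luminal-like nuclei against 60.0 RPM or less in adult progenitor-like and basal-like nuclei. In the fetus it was highest in unnamed class 13, at 184 and 172 RPM, the former from 40 nuclei. Zfpm1, the FOG cofactor of GATA factors, held 136 ± 9.88 RPM in the fetus and 116 ± 13.4 RPM in the adult (SD, n = 2) and did not pass (edgeR adjusted p = 0.143). The other genes not called were Zfpm2, Lmo2, Ldb1, Tal1, Zglp1, Gatad1, Gatad2a, Gatad2b and Mta3, with log2 fold changes from −0.37 to 1.22. The list's median was 0.18 against 0.01 over all genes, and 22.2% of all genes were called.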

How the data were processed

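Reads had been aligned to mm10, with Bowtie2, MACS2 and bedtools among the tools, per the submitters' processing notes; read shifts and duplicate removal are not given in the sources used here. The deposited read positions carried a barcode each, and the authors' deposited table gave the count of reads per nucleus, which equalled the reads found for all 7846 nuclei, the class of each nucleus and a chromVAR score per motif. Cicero pair scores and gene scores were the authors' too, deposited over pooled nuclei. Here, listed-barcode reads were counted where they overlapped a RefSeq span plus 2 kb or a deposited region by 1 base, and summed per library. Whole tables were tested with edgeR 4.0.16 (TMM factors, quasi-likelihood test, mean of at least 10 reads, Benjamini-Hochberg adjusted p under 0.05), and motif means with limma 3.58.1. Standard errors were taken as the log2 fold change over the square root of F. With 2 libraries a stage, p-values rest on the spread between these libraries, estimated with information shared over all tested features. The steps were run on simulated data with changes larger than those of the GATA spans and motif scores. Power for changes of the size seen here was not tested. No doublet caller was run, because the deposited classes were used as they stood.

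The members and lists were chosen with earlier results of these data known. Named regions were all member promoter regions, the called distal regions with the largest changes (5 in each direction for Gata3, 2 for the others, stages not overlapping, a mean of at least 20 reads) and the most read one of each gene; the 3 best pairs, every member motif, the 5 genes most like Gata3 and the called cofactors were named too. Alternatives were DESeq2 1.42.0, other scalings, filters, windows, flanks and read rules, each library left out, a replicate block, deeper nuclei and, chosen after seeing the data, leaving out class 6.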

Additional observations from a re-analysis of the deposited data

How the results depend on the processing

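Direction and side of the threshold were kept by Gata4 over whole libraries in every alternative run, and the motif count stayed at 2 in all of them. Leaving out 1 library at a time gave 1 to 2 called spans, 0 to 2 among luminal progenitor-like and 0 to 1 among basal-like nuclei, 7 to 9 Gata3 distal regions, 23 to 32 regions of the other genes, 4 to 5 Gata3 regions among luminal progenitor-like and 0 to 1 among basal-like nuclei, 0 to 1 promoter regions and 3 to 5 cofactors; with 1 library left in a stage it is assumed to vary like the others. DESeq2 called 6 Gata3 regions, 20 regions of the other genes and 1 promoter region. A minimum mean of 50 reads, which tests fewer regions, called 5 and 12 distal regions, 1 promoter region and 0 Gata3 regions within each lineage. A window of 50 kb held 5, 16 and, in luminal progenitor-like nuclei, 3 called regions, and one of 300 kb held 17, 86 and, in basal-like nuclei, 2, as the windows hold fewer or more regions. Scaling by total reads and counting by read midpoint each called 1 promoter region; the cause was not tested. At 0.25 no Cicero pair was left (0 against 10 at 0.1).

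Replicate numbers were only shared (deviations of same-numbered libraries had r = 0.30 across 16707 genes); with the replicate number as a block, 8 cofactors were called, adding Zfpm1, Gatad1, Gatad2b and Zglp1, and Gata5 in basal-like nuclei turned to 0.16. No other count crossed 1.5 times its value under the block. Signs that turned belonged to effects that did not pass. Leaving out libraries gave −0.12 to 0.013 for Gata3 and −0.86 to 0.66 for Gata1 over whole libraries, −0.089 to 0.12 for Gata3 and −0.35 to 0.44 for Gata5 in luminal progenitor-like nuclei, and −0.89 to 1.10 for Gata5 in basal-like nuclei. For the difference of stage effects they gave −0.42 to 0.79 for Gata6, −1.12 to 1.30 for Gata5 and −0.16 to 0.42 for Gata2. Gata6 there turned to −0.086 without flanks, and Gata5 to −0.041 with DESeq2 and −0.088 without the block; the cause was not tested. They also gave −1.05 to 0.66 for the most read Gata6 region, −0.028 to 0.26 for the region over the Gata3 start in luminal progenitor-like nuclei and −0.020 to 0.63 for the Gata2 promoter region. Depth limits Gata1 and Gata5 most.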
